A study of Mus musculus with 4 samples.

Results

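Paneth cells secrete a mixture of antimicrobial proteins into the crypts of the small intestine, and 8 genes of that mixture were followed through mouse small-intestinal adenomas. They were Lyz1, Defa24, Defa30, Gm14851, AY761184, Ang4, Mmp7 and Itln1, listed by name for their known link to Paneth cells, with earlier results of these data in view. All 8 were found among the 27514 genes listed in the gene tables of all 4 libraries. Each gene was described by its CPM (counts of unique molecular identifiers, or UMIs, which tag captured transcripts, per 1000000 UMIs of the same cells and with no length scaling), by the share of cells with at least 1 UMI, and by its detection together with other members. Cells were barcodes with at least 2000 UMIs and at most 20% mitochondrial UMIs, sorted into adenoma-, goblet-, crypt- and enterocyte-gated cells by marker genes that include no member.

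The study compared adenomas with and without Lef1, a transcription factor of the Wnt pathway. All mice were C57BL/6, 11 weeks old and labelled male, and all carried the ApcMin allele, with genotype ApcMin/+;Lef1 +/+ for ApcMin and ApcMin/+;Lef1 fl/fl; Villin-Cre for VApcMinL. Villin-Cre acts in the intestinal epithelium, so other cells of a VApcMinL tumor keep Lef1, and the comparison also carries the Cre transgene itself. Between 3 and 10 tumors were pooled per dissociation, without sorting, and each genotype had 2 libraries made with the 10x Genomics 3′ method, replicate 1 with kit version 2 and replicate 2 with kit version 3. No label says that the 2 libraries of a genotype came from separate mice, so p-values measure only the spread between these libraries. Runs of 4 values list the kit 2 libraries first (ApcMin replicate 1, then VApcMinL replicate 1), followed by the kit 3 libraries (ApcMin replicate 2, then VApcMinL replicate 2).

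Paneth cells sit at the crypt base between the stem cells and release granules that act on bacteria. Alpha-defensins are small cationic peptides that damage bacterial membranes and are stored as inactive precursors. Mmp7, a matrix metalloproteinase also called matrilysin, cuts these precursors in the mouse, and it is known too as a Wnt target that is high in intestinal adenomas. Lyz1 is the Paneth cell lysozyme, which cleaves bacterial cell walls, Ang4 is a ribonuclease with antibacterial activity, and Itln1 is a lectin that binds bacterial sugars. Wnt signalling is needed for Paneth cell maturation, and Apc normally restrains that pathway.

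The 4 defensin members lie in a cluster on mouse chromosome 8 (GRCm38, GENCODE annotation), Gm14851 at chr8:21095074-21096050 (minus strand), Defa30 at chr8:21134642-21135598 (plus), AY761184 at chr8:21702519-21703645 (minus) and Defa24 at chr8:21734494-21735471 (plus). They form 2 pairs of near-identical genes. The coding sequences of Defa24 and Defa30 (282 bases each) were 98.6% identical, those of Gm14851 and AY761184 (351 bases each) were 96.9% identical, and identity between the pairs ran from 67.3% to 68.4%. A UMI of 1 gene of a pair can thus be counted for its partner or be lost as ambiguous, and how the authors' counting split them is uncertain. The last 120 coding bases of each, 5′ to 3′, are shown because they let a reader see how little separates the partners. Capitals mark the bases at which a gene differs from its partner, 2 in the first pair and 6 in the second.
Defa24: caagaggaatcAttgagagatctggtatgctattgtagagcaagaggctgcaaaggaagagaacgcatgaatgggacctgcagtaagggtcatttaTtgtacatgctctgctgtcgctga
Defa30: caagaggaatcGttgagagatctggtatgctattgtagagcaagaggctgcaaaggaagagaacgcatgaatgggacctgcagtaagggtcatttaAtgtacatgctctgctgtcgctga
Gm14851: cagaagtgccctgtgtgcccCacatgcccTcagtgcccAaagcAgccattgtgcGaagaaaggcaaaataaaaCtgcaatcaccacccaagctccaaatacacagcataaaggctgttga
AY761184: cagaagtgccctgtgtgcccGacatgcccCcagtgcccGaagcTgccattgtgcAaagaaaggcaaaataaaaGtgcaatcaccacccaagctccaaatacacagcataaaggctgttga

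The other members lie apart, Lyz1 at chr10:117287797-117292868 (minus), Ang4 at chr14:51763878-51773590 (minus), Mmp7 at chr9:7692090-7699585 (plus) and Itln1 at chr1:171518122-171535294 (minus). The RefSeq promoter table held 6 of the 8 genes, all but Defa24 and AY761184, with Gm14851 under its later symbol Defa38. Among the 250 bases upstream of each start, the letters CTTTGA, the core bound by LEF and TCF factors, were searched on both strands. They were present in 1 of the 6 (Defa30) and in 13.8% of 32851 promoters of the same length. The Defa30 window (chr8:21134400-21134649, plus strand, GRCm38.p6) is shown with the match, which reads from the opposite strand, in capitals.
Defa30 promoter: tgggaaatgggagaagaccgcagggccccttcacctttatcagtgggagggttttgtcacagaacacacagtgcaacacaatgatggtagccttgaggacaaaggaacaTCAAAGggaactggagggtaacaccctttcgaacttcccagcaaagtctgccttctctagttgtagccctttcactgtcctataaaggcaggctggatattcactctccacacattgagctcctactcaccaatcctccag

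The 4 libraries held 44660305 to 128247396 UMIs in all and 2071 to 4217 cells, with median depths of 10879.5 to 26205 UMIs per cell. With kit 2, the level of Lef1 did not follow the genotype labels. In adenoma-gated cells it was at 11.1, 35.1, 49.5 and 29.4 CPM, higher in the library labelled VApcMinL than in that labelled ApcMin with kit 2 and lower with kit 3. Counting at the 3′ end can still record a transcript that lacks internal exons. Xist, which marks female cells, was at 0, 1245, 0.166 and 304 CPM in the same cells although all mice are labelled male. Libraries are therefore named by their labels only. The kit 2 libraries shared 9 cell barcodes, ApcMin replicate 1 and VApcMinL replicate 2 shared 1, and no other pair shared any. The gates held 218, 438, 196 and 1014 adenoma cells, 57, 89, 137 and 165 goblet cells, and 270, 583, 929 and 587 enterocytes.

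Every member was far higher in goblet-gated than in enterocyte-gated cells. Goblet-gated cells were picked by the mucus genes Muc2, Fcgbp, Clca1, Zg16, Spink4 and Tff3. That gate does not exclude Paneth cells, so its values cannot be read as those of goblet cells alone. Among the defensins, Defa24 was at 17089, 14397, 78335 and 42196 CPM in goblet-gated cells and at 259, 52.7, 52.5 and 57.6 in enterocyte-gated cells. Defa30 was at 1655, 3336, 28624 and 14308 against 125, 10.1, 17.2 and 16.2. Goblet-gated cells held more than enterocyte-gated cells in each library for both genes. Gm14851 reached 571, 777, 15033 and 5652 CPM in goblet-gated cells, and AY761184 reached 1352, 615, 17057 and 6233. In enterocyte-gated cells, 17.5 for Gm14851 and 18.6 for AY761184 were the highest values, both in ApcMin replicate 1. Both genes were higher in kit 3 than in kit 2 goblet-gated cells.

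The members that are not defensins showed the same order of classes. Lyz1 was at 828, 2498, 8125 and 8834 CPM in goblet-gated cells against 21.2, 20.8, 10.8 and 29.7 in enterocyte-gated cells. Itln1 was at 1184, 1457, 10309 and 5584 against 17.1, 18.6, 12.03 and 13.6, and Mmp7 at 531, 489, 993 and 1497 against 6.32, 2.94, 1.79 and 7.76. Ang4 was uneven between libraries, at 108, 1743, 3723 and 1620 against 1.11, 5.04, 2.46 and 2.75. Each of these genes was higher in the goblet-gated than in the enterocyte-gated cells of the same library. The edgeR test on UMI sums per library and class, with the library as a block, called 63.0% of 12203 genes between goblet- and enterocyte-gated cells, with 30.9% higher and 32.1% lower in goblet-gated cells. All 8 members were called higher. The log2 differences ran from 7.49 (SE 0.72, adjusted p = 6.51e-07) for Lyz1 and 7.52 (SE 0.40, adjusted p = 2.28e-09) for Mmp7 to 9.60 (SE 1.03, adjusted p = 1.82e-06) for Gm14851, and their median was 8.43 beside 0.03 over all genes tested.

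**Figure D1:**
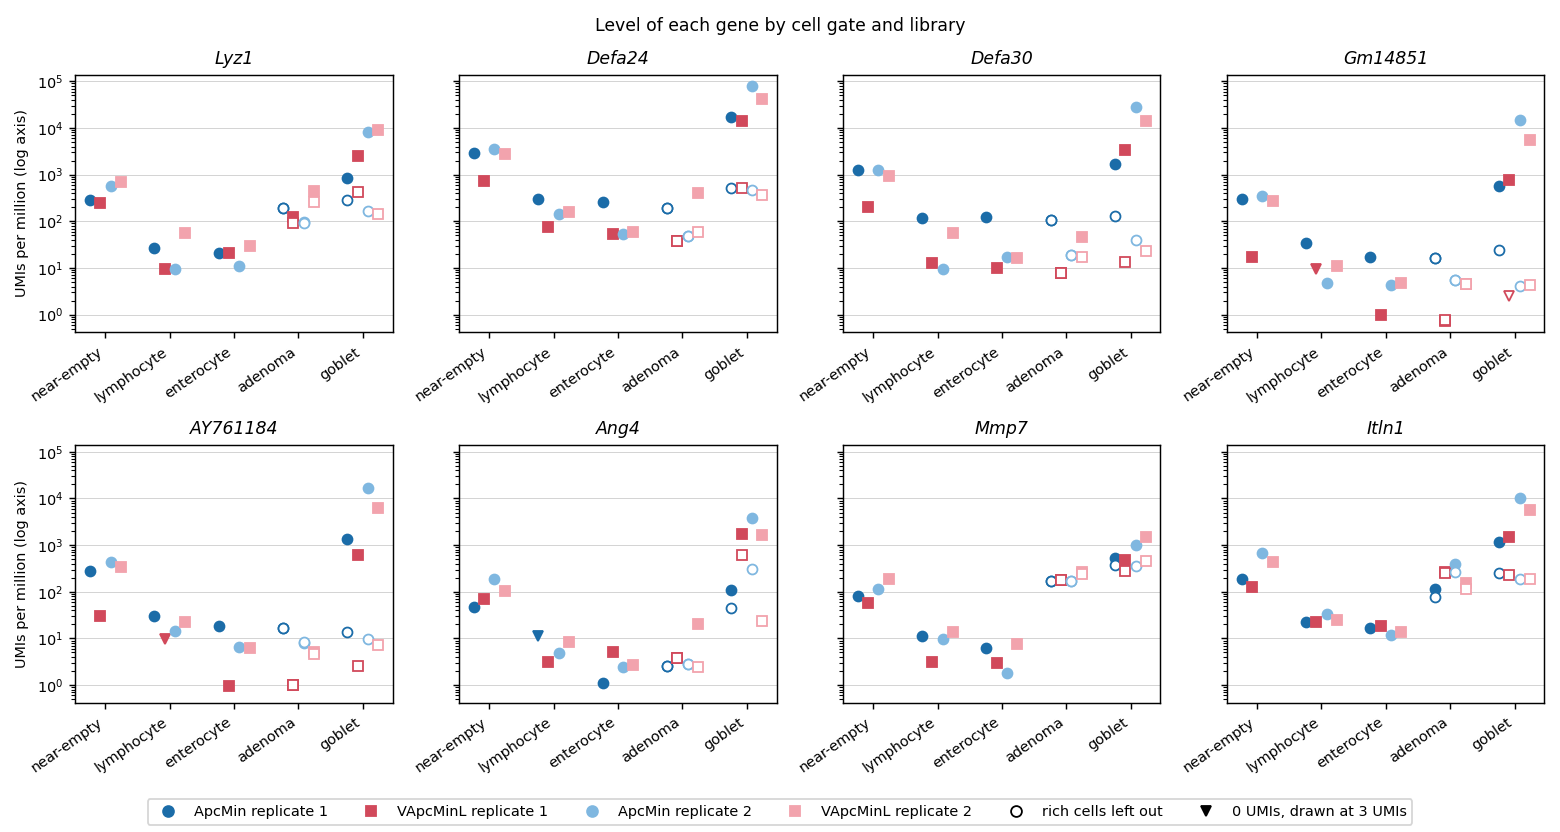
CPM (log axis) of each member in each library, by class of cells and in near-empty barcodes, with filled points for all cells of a class, open points without member-rich cells (those in which the 8 genes hold at least 1% of UMIs), and triangles at 3 UMIs where none was counted. With all cells, all 8 genes are highest in goblet-gated cells, and the near-empty barcodes hold more Defa24 (730 to 3540 CPM) than adenoma- or enterocyte-gated cells do.

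These goblet-gated sums came from few cells. Cells in which the 8 members held at least 1% of all UMIs, called member-rich here, numbered 21, 27, 36 and 72, or 0.850%, 1.06%, 1.74% and 1.71% of the cells. The exact (Clopper-Pearson) 95% intervals were 0.527% to 1.30%, 0.702% to 1.54%, 1.22% to 2.40% and 1.34% to 2.15%, which cover counting error only. Member-rich cells held 90.7%, 74.3%, 97.1% and 87.2% of all member UMIs found in cells, and the 10 highest cells of a library alone held 89.6%, 65.1%, 93.9% and 60.5%. In the highest cell the 8 genes took 69.7%, 62.5%, 76.1% and 76.6% of its UMIs. Since these cells were picked by the members' own level, their values are a description.

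Of the 21, 27, 36 and 72 member-rich cells, 10, 18, 29 and 39 had passed the goblet gate, while 1, 2, 2 and 13 were adenoma-gated and 0 were enterocyte-gated in any library. ApcMin replicate 1 stood apart. There 85.6% of the member UMIs lay in cells of no gate, 81.2% in 5 cells alone, against 7.53%, 1.204% and 12.5% in the other libraries, so its goblet values leave out most of its member transcripts. Fixed Paneth markers (at least 2 of Mptx2, Habp2, Clps and Copz2, in an epithelial cell) were found in 67, 139, 108 and 253 cells, and 9, 8, 20 and 50 of the member-rich cells were among them. Cells with these markers can also pass the goblet gate. They held 593, 1189, 58992 and 22747 UMIs of Gm14851, beside 583, 1189, 58727 and 22194 in goblet-gated cells. For Ang4 the counts were 84, 1804, 12667 and 7477 beside 110, 2669, 14546 and 6361. How many cells passed both gates was not counted. Scrublet scores marked 0, 0, 1 and 2 member-rich cells as doublets.

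The member-rich cells did not carry the same mixture. Defa24 was the leading member in 16, 16, 25 and 39 of them and Lyz1 in 2, 6, 1 and 31. Of the 15, 17, 26 and 45 cells with 100 or more UMIs of Defa24, Gm14851 was at 3 UMIs or fewer in 10, 16, 15 and 28. AY761184 was equally low in 6, 15, 12 and 21 of those cells, and Defa30 was below 5% of the Defa24 count in 8, 16, 15 and 19. In every library, some cells with much Defa24 thus held hardly any Gm14851, and some held hardly any AY761184. Each gene was counted separately, so these counts do not say how many cells were low for all of them. Just 4, 1, 8 and 12 cells held 100 or more UMIs of each of the 4 defensins. A different kind of cell had Lyz1 without Defa24. Of the 10, 10, 17 and 58 cells with 100 or more UMIs of Lyz1, 2, 5, 1 and 23 held under 20 UMIs of Defa24, most of them in VApcMinL replicate 2.

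**Figure D2:**
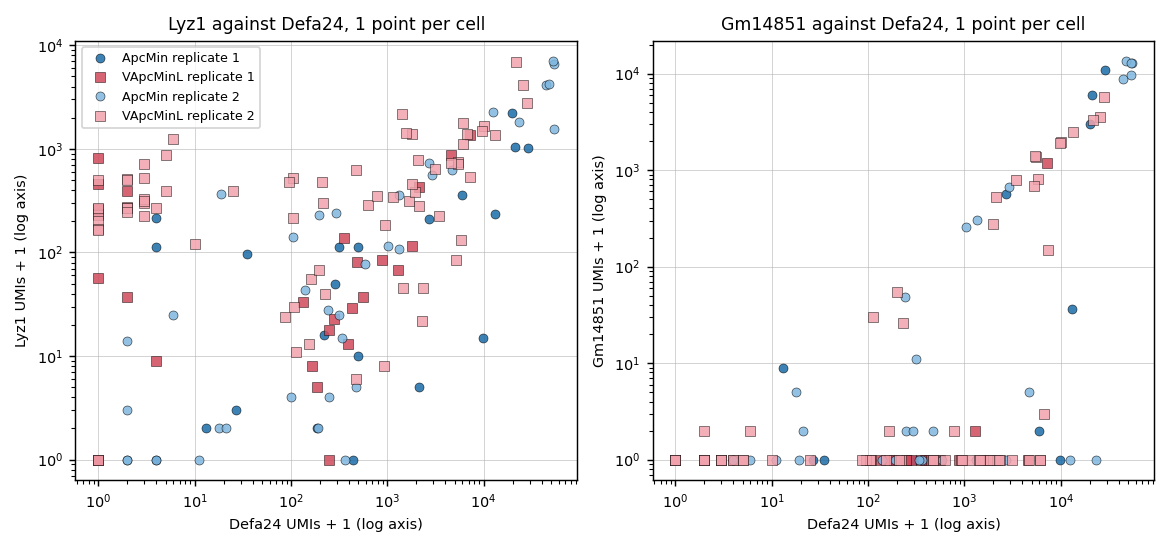
UMIs plus 1 (log axes) of Lyz1 against Defa24 and of Gm14851 against Defa24 in single member-rich cells, 1 point per cell, with shape and color by library. Cells with 100 or more UMIs of Defa24 fall into a set with hardly any Gm14851 (at most 3 UMIs in 10, 16, 15 and 28 cells) and a set with both, and some cells hold Lyz1 without Defa24.

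Without the member-rich cells, goblet-gated cells still held more Mmp7, Ang4, Itln1, Lyz1 and Defa24 than enterocyte-gated cells, but not more of the other defensins. Leaving these cells out lowers every member by construction. The edgeR log2 differences were then 6.18 (SE 0.39) for Mmp7, 5.66 (SE 0.62) for Ang4, 3.47 (SE 0.28) for Itln1, 3.32 (SE 0.38) for Lyz1 and 2.28 (SE 0.31) for Defa24, with 5 of 8 called. Over all the settings tried, 3124 to 7899 genes were called in this comparison. Defa30 was at 0.17 (adjusted p = 0.495), AY761184 at -0.16 (adjusted p = 0.637) and Gm14851 at -0.39 (adjusted p = 0.267). For Defa24, the remaining goblet-gated cells of the 4 libraries were at 524, 527, 472 and 368 CPM. These cells were kept under a cap on the members' own level, so the likeness of these values cannot be read as a result.

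Adenoma-gated cells, defined by the Wnt feedback and tumor genes Notum, Nkd1, Wif1, Prox1, Axin2 and Dkk3, held 3 members above enterocyte-gated cells, namely Mmp7, Itln1 and Lyz1. Mmp7 was at 169, 176, 167 and 260 CPM, nearly level over the first 3 libraries and highest in VApcMinL replicate 2. Itln1 was at 115, 270, 384 and 153, and Lyz1 at 190, 124, 95.04 and 444. Each of the 3 genes was higher than in the enterocyte-gated cells of the same library. The log2 differences were 4.92 (SE 0.37, adjusted p = 1.71e-08) for Mmp7, 3.03 (SE 0.52, adjusted p = 8.13e-05) for Itln1 and 2.59 (SE 0.59, adjusted p = 0.00101) for Lyz1 in edgeR. As 78.1% of 12203 genes were called in this comparison 41.0% as higher and 37.1% as lower in adenoma-gated cells, 3 of 8 is near the background, and the count says nothing particular about the members. The comparison uses the same enterocyte sums as the one with goblet-gated cells. Without the 1, 2, 2 and 13 member-rich cells, Mmp7 stayed at 169, 176, 168 and 244 CPM, Lyz1 in VApcMinL replicate 2 was at 263, and the log2 differences were 4.84, 2.75 and 2.22 for Mmp7, Itln1 and Lyz1.

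The defensins and Ang4 did not pass the test between adenoma- and enterocyte-gated cells. Defa24 was at 192, 38.4, 48.7 and 395 CPM in adenoma-gated cells, and 57.8 in place of 395 without the 13 member-rich cells. Its log2 difference was -0.08 (SE 0.72, adjusted p = 0.921). Defa30, Gm14851 and AY761184 gave -0.39 (SE 0.78), -0.61 (SE 0.89) and -0.69 (SE 0.73), and Ang4, at 2.54, 3.85, 2.82 and 20.4 CPM in adenoma-gated cells, gave 0.91 (SE 0.78). In VApcMinL replicate 2, Ang4 was at 2.50 CPM without the member-rich cells. With member-rich cells left out, which removes 1, 2, 2 and 13 adenoma-gated cells and 0 enterocyte-gated cells by the members' own level and so lowers the adenoma side by construction, the 4 defensins were called lower, by log2 differences of -0.95 for Defa24, -0.80 for Defa30, -0.72 for Gm14851 and -0.79 for AY761184, and Ang4 was at -0.50 (adjusted p = 0.509).

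**Figure D3:**
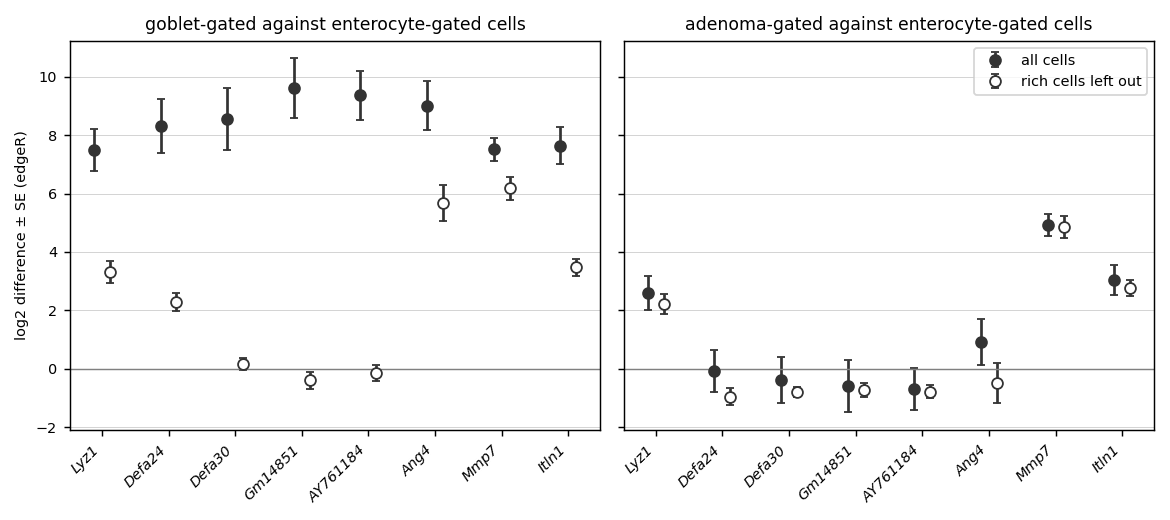
Log2 differences (edgeR, ± SE) of each member between goblet- and enterocyte-gated cells and between adenoma- and enterocyte-gated cells, with all cells (filled) and without member-rich cells (open). Mmp7 stays at 4.92 and 4.84 in adenoma-gated cells, whereas Gm14851 in goblet-gated cells falls from 9.60 to -0.39.

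Near-empty barcodes, with 20 to 200 UMIs, serve as the background of free RNA. Defa24 reached 2850, 730, 3540 and 2719 CPM there, above every adenoma- and enterocyte-gated value. Mmp7 was at 81.0, 58.7, 116 and 190, below its adenoma-gated value in each library. Lyz1 was at 279, 250, 583 and 691 CPM in near-empty barcodes, above its adenoma-gated value in each library. Itln1 was at 187, 125, 692 and 437, above its adenoma-gated value in all libraries but VApcMinL replicate 1. Beside near-empty barcodes alone, Lyz1 of adenoma-gated cells is thus not set apart by level, nor is Itln1 outside VApcMinL replicate 1. These barcodes give the level of free RNA itself, not the level it adds within a cell. In enterocyte-gated cells of the same libraries Lyz1 was lower than in adenoma-gated cells, at 21.2, 20.8, 10.8 and 29.7 CPM. Itln1 was lower there too, at 17.1, 18.6, 12.03 and 13.6. How much free RNA adds to adenoma-gated cells was not tested. Lymphocyte-gated cells, which should lack the members, also held Defa24, at 299, 76.9, 141 and 157 CPM. The defensins of enterocyte- and lymphocyte-gated cells therefore cannot be told apart from free RNA by their level. Their mixture also leaned to defensins, as in the near-empty barcodes. The 4 defensins made up 88.7%, 66.0%, 78.1% and 75.0% of member UMIs in near-empty barcodes, 90.2%, 57.7%, 74.8% and 61.3% in enterocyte-gated cells and 88.8%, 70.0%, 74.5% and 70.4% in lymphocyte-gated cells.

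Adenoma-gated cells had another mixture. The defensins made up 41.1%, 7.70%, 11.1% and 33.9% of their member UMIs, below the share in near-empty barcodes, enterocyte-gated and lymphocyte-gated cells of each library. For each 100 UMIs of Defa24 they held 87.7, 457, 343 and 65.9 UMIs of Mmp7, against 2.84, 8.04, 3.27 and 6.99 in near-empty barcodes and 2.44, 5.57, 3.40 and 13.5 in enterocyte-gated cells. The ratio was higher in adenoma-gated cells in all 4 libraries. Lyz1 moved the same way, at 98.9, 322, 195 and 112 UMIs for each 100 of Defa24 against 9.79, 34.2, 16.5 and 25.4 in near-empty barcodes, and so did Itln1, at 59.98, 704, 790 and 38.8 against 6.55, 17.1, 19.5 and 16.1. In VApcMinL replicate 2 the 13 member-rich cells decided these values, with a defensin share of 11.9% and 422 UMIs of Mmp7, 456 of Lyz1 and 201 of Itln1 for each 100 of Defa24 without them.

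**Figure D4:**
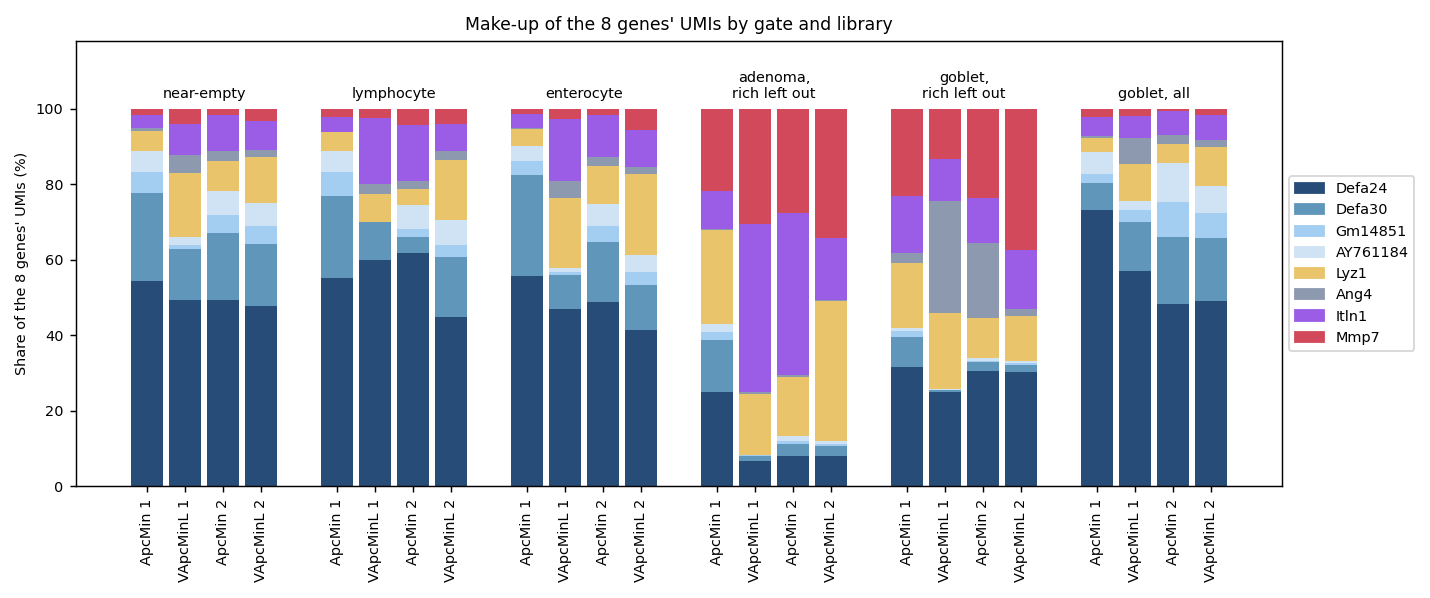
Share (%) of each member among the UMIs of all 8 members, by library, in near-empty barcodes and in classes of cells. Defensins make up 66.0% to 88.7% in near-empty barcodes but 8.36% to 43.1% in adenoma-gated cells without member-rich cells (7.70% to 41.1% with them).

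Shares of positive cells were compared after thinning each cell to 2000 UMIs, since deeper cells show a gene more often. At that depth Mmp7 was found in 21.1%, 29.5%, 19.9% and 31.2% of adenoma-gated cells (exact intervals of 15.9% to 27.1%, 25.2% to 34.0%, 14.5% to 26.2% and 28.3% to 34.1%), and without thinning in 63.3%, 78.1%, 67.9% and 77.9%. It was found in 1.48%, 0.172%, 0.753% and 1.53% of enterocyte-gated and 2.44%, 0.926%, 6.45% and 2.53% of lymphocyte-gated cells. Median depths before thinning were 17990.5, 16223.5, 24593.5 and 20810 UMIs for adenoma-gated and 2519, 2526, 3142 and 2748 for lymphocyte-gated cells. Mmp7 in adenoma-gated cells was above both other classes in every library.

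Itln1 was found in 14.2%, 23.5%, 20.4% and 15.1% of thinned adenoma-gated cells (48.6%, 56.6%, 63.3% and 51.4% without thinning). It was in 2.22%, 3.95%, 3.77% and 4.26% of enterocyte-gated and 6.10%, 1.85%, 12.9% and 7.59% of lymphocyte-gated cells. Lyz1 was found in 12.4%, 7.31%, 8.67% and 19.1% of thinned adenoma-gated cells (45.4%, 28.8%, 30.6% and 54.1% without thinning). It was in 5.19%, 3.09%, 2.69% and 5.28% of enterocyte-gated cells. Lymphocyte-gated cells, only 82, 108, 31 and 79 in number, held Lyz1 at 7.32%, 1.85%, 6.45% and 12.7%, a smaller margin. Defa24 was at 36.7%, 7.53%, 10.7% and 12.2% (95.4%, 48.2%, 68.4% and 65.3% without thinning), below the lymphocyte shares of 48.8%, 15.7%, 32.3% and 32.9% in every library, so that expression of Defa24 cannot be read from these shares. Gm14851, AY761184 and Ang4 were in at most 2.75% of thinned adenoma-gated cells of any library. Gm14851 was in 0 of the 438 cells of VApcMinL replicate 1 after thinning, which allows a share of up to 0.685% at that depth, and in 6 (1.37%) without thinning.

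**Figure D5:**
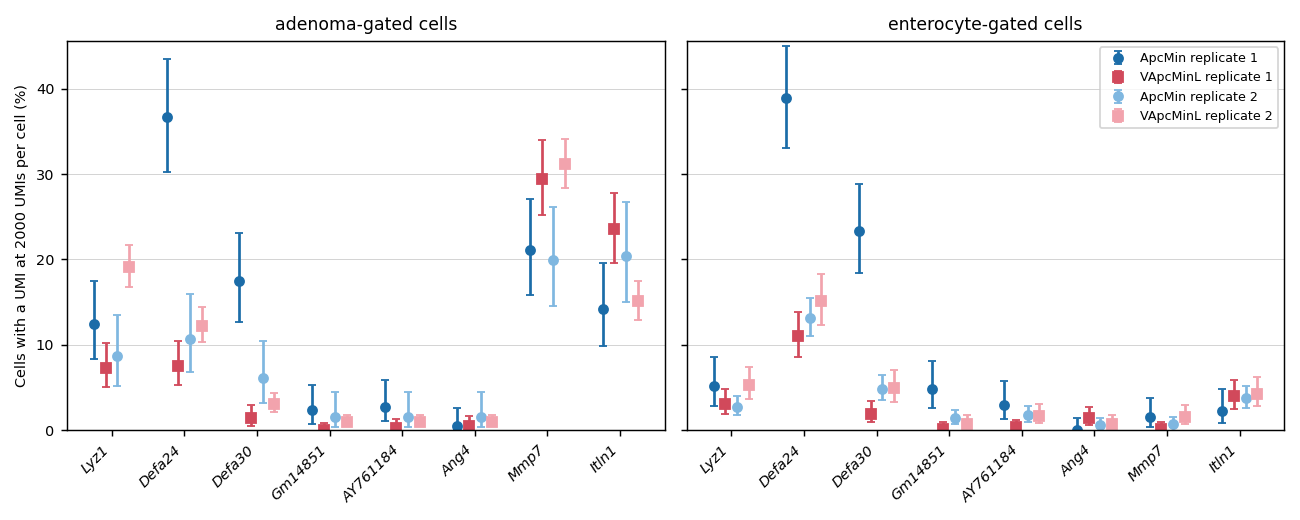
Share (%) of adenoma- and enterocyte-gated cells with at least 1 UMI of each member after thinning to 2000 UMIs per cell, by library, with exact 95% intervals. Mmp7 is in 19.9% to 31.2% of adenoma-gated cells and at most 1.53% of enterocyte-gated cells, while Defa24 is in both classes at like shares.

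Detection of 1 member beside another was read in all thinned adenoma-gated cells. Lyz1 was detected in 8.70% of Mmp7-positive and 13.4% of Mmp7-negative cells of ApcMin replicate 1, and in 3.88% and 8.74%, 10.3% and 8.28%, and 15.5% and 20.8% in the other libraries. The share was lower beside Mmp7 in 3 of the 4 libraries. The Mmp7-positive cells numbered 46, 129, 39 and 316. Outside VApcMinL replicate 2 the shares beside Mmp7 thus rest on very few Lyz1-positive cells, and their direction is a description. Itln1 was in 25.9% of Lyz1-positive and 12.6% of Lyz1-negative cells of the first library, and in 28.1% and 23.2%, 29.4% and 19.6%, and 22.2% and 13.4% in the others, higher beside Lyz1 in all 4. The Lyz1-positive cells numbered 27, 32, 17 and 194. Defa24 had no common direction with Mmp7, at 39.1% and 36.0%, 5.43% and 8.41%, 5.13% and 12.1%, and 13.0% and 11.9%. No test was run on these shares, because cells of 1 library are not replicates.

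Crypt-gated cells, defined by the stem cell gene Olfm4 without adenoma genes, were 0, 0, 31 and 59 in number, so that only the kit 3 libraries had any. Mmp7 was at 17.1 and 75.9 CPM there and Lyz1 at 119 and 58.4. In ApcMin replicate 2, 2 member-rich cells held most of the Defa24, which was at 104 in place of 1041 without them, and Lyz1 was then at 13.8. In edgeR, 25.8% of 12203 genes were called (15.1% higher and 10.7% lower) between adenoma- and crypt-gated cells and 4 of 8 members, Mmp7 higher by 2.48 (SE 0.45, adjusted p = 0.00123), Itln1 higher by 2.06 (SE 0.68, adjusted p = 0.0375), and Gm14851 and AY761184 lower at -3.83 (SE 1.04) and -3.68 (SE 0.86). The split of all called genes was 1840 higher and 1304 lower, against 1444 and 1709 in DESeq2. With member-rich cells left out, which lowers the members by construction, 7 members were called (and 3065 genes in all), Mmp7 at 2.51, Itln1 at 2.87 and Lyz1 at 2.11 higher, and the 4 defensins lower, from -1.24 (AY761184) to -1.48 (Defa30). With gate minimums doubled Itln1 turned to -2.50 and Lyz1 to -3.93, both called among 3212 of 12085 genes.

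Between crypt- and enterocyte-gated cells 60.7% of genes were called (26.8% higher and 33.9% lower), and 3 of 8 members, all higher, Mmp7 at 2.44 (SE 0.46, adjusted p = 0.000323), Gm14851 at 3.22 (SE 1.05) and AY761184 at 2.98 (SE 0.86). Here the median log2 difference over all genes was -0.17, and 0.05 in DESeq2. Between goblet- and crypt-gated cells 29.7% of genes (18.3% higher and 11.4% lower) and all 8 members were called, with Mmp7 at 5.08 (SE 0.48) and Ang4 at 6.84 (SE 0.99), and the split of called genes was 2234 higher and 1392 lower (1812 and 1776 in DESeq2). A gate for crypt cells without Olfm4 (Slc12a2, Clca3b, Cps1, Aldh1b1, Myb and Fgfbp1), added after the data were seen, held 191, 146, 121 and 223 cells. With it no member was called between crypt- and enterocyte-gated cells (Mmp7 at 0.97, adjusted p = 0.0577), whereas Mmp7, Itln1 and Lyz1 were higher in adenoma- than in crypt-gated cells by 4.12 (SE 0.38), 3.75 (SE 0.53) and 3.14 (SE 0.53).

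Whether the members differed by genotype label was tested in each class with the kit as a block. Xist was high in both libraries labelled VApcMinL and nearly absent in both labelled ApcMin. A difference by genotype label, in level or in share of positive cells, thus cannot be told apart from a difference in sex. In adenoma-gated cells 0.00% of 12078 genes were called by edgeR, 25 had an unadjusted p below 0.05, and DESeq2 called 3 genes, none of them a member. The members gave 0.34 (SE 0.30) for Mmp7, 0.79 (SE 0.91) for Lyz1, -0.06 (SE 0.71) for Itln1, 0.34 (SE 2.002) for Defa24 and 1.80 (SE 0.78) for Ang4, VApcMinL against ApcMin on the log2 scale, all at an adjusted p of 1. Without member-rich cells Ang4 was at 0.18 (SE 0.58). With all cells, the lowest was AY761184 at -2.22 (SE 1.09). In goblet-gated cells 0.0709% of 9870 genes (0.0304% higher and 0.0405% lower) and 0 members were called, with Lyz1 at 0.79 (SE 0.69), Ang4 at 1.29 (SE 1.17) and AY761184 at -1.36 (SE 0.69, unadjusted p = 0.0666, the lowest of the 8). In enterocyte-gated cells 0.00958% of 10443 genes and 0 members were called, with Defa30 at -1.77 (SE 0.69) and Lyz1 at 0.81 (SE 0.34).

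In crypt-gated cells of the added gate, 0.0578% of 10375 genes (0.0386% higher and 0.0193% lower) and 0 members were called. Mmp7 was at 4.55, 9.17, 3.58 and 30.2 CPM, higher in the library labelled VApcMinL of each kit, with a log2 difference of 2.26 (SE 0.40, adjusted p = 0.123). Lyz1 was at 14.8, 17.2, 14.7 and 37.8 (log2 difference 0.88, adjusted p = 0.928). With gate minimums doubled, 26 of 8109 genes and 6 members were called and Lyz1 turned to -2.46 (adjusted p = 0.000201), so the crypt values depend on where the gate is set.

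The share of Mmp7-positive adenoma cells was the only one of the 3 higher members that moved alike with both kits. ApcMin had 20.5% ± 0.851 (SD, n = 2) and VApcMinL 30.3% ± 1.21 (SD, n = 2), a difference of 9.81 percentage points, 8.35 with kit 2 and 11.3 with kit 3. The groups did not overlap, and the two-sided exact permutation test gave p = 0.33, the smallest that 2 libraries against 2 allow. This was not particular to Mmp7. The groups did not overlap either for Defa30 (17.4%, 1.37%, 6.12% and 3.06%), Gm14851 (2.29%, 0%, 1.53% and 0.986%) and AY761184 (2.75%, 0.228%, 1.53% and 0.986%), all lower in VApcMinL. The share of all genes without overlap was not counted. Lyz1 differed by 2.69 points (p = 1, exact permutation test) and Itln1 by 1.99 points (p = 0.667, exact permutation test), with opposite signs in the kits. Defa30 was lower in VApcMinL by -9.56 points (p = 0.33, exact permutation test), most of it between the kit 2 libraries, where the near-empty barcodes held 1229 and 201 CPM of Defa30. In all, 16 such shares were tested, 8 genes in adenoma- and goblet-gated cells, and none can pass an adjustment.

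Other genes of the same cell type were taken from fixed lists. Of 24 further alpha-defensin genes, 21 were tested between goblet- and enterocyte-gated cells and all 21 were called higher, beside 30.9% of all genes, with a median log2 difference of 9.04 beside 0.03 over all genes. Between adenoma- and enterocyte-gated cells 2 of the 21 were called higher and 0 lower, beside 41.0% and 37.1% of all genes (Defa34 at 3.18, SE 0.87, and Gm15293 at 3.11, SE 1.01, each at 0 UMIs in at least 1 library's adenoma-gated cells), with a median of 0.08 beside 0.09. By genotype, 0 were called of the 5 tested in adenoma-, 21 in goblet-, 5 in crypt- and 4 in enterocyte-gated cells. The most abundant of the list, Defa22, Defa29, Defa21 and Defa17, reached at most 20.6, 10.6, 10.6 and 8.32 CPM in adenoma-gated and 14.5, 15.98, 11.5 and 9.66 in enterocyte-gated cells.

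Of 19 other Paneth genes, 18 were tested, and 16 were called higher in goblet- than in enterocyte-gated cells, beside 30.9% of all genes. Between adenoma- and enterocyte-gated cells 10 of 18 were called higher and 3 lower, beside 41.0% and 37.1% of all genes, with a median of 1.75 beside 0.09. Those higher included Habp2, a serine protease, at 5.33 (SE 0.66), Mptx2, a mucosal pentraxin, at 4.31 (SE 0.75), the surface protein Cd24a at 4.17 (SE 0.23), the secretory lineage factor Spdef at 4.15 (SE 0.35) and Sox9, a Wnt target needed for Paneth cell formation, at 3.38 (SE 0.29). Those lower were Fgfr3 at -1.80 (SE 0.29), the chemokine Ccl6 at -1.11 (SE 0.29) and Xbp1, a factor of the secretory stress response, at -0.86 (SE 0.17). Mptx2 and Habp2 are in the marker set used above for Paneth cells, so that set is not particular to them in adenomas.

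The genes whose cell-to-cell pattern was most like the summed members were Clps (mean Pearson r of 0.47 over the 4 libraries, range 0.38 to 0.57), Defa17 (0.47), Spink4 (0.44), Ramp1 (0.41), Agr2 (0.39), Reg4 (0.38), Txndc5 (0.38), Klk1 (0.38), Muc2 (0.38) and Fxyd3 (0.36). The correlations were taken across 1269 to 2921 epithelial cells of a library on the natural log of 1 plus UMIs per 10000, with 11582 genes ranked. Cells of a library share its free RNA and differ in depth, so these values are a description.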

How the data were processed

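Single-cell libraries (10x Genomics 3′) of mouse small-intestinal adenomas were analysed, 4 in all and 2 per genotype. The authors deposited raw UMI counts for all barcodes. The study's methods and the submitters' processing notes name Cell Ranger 2.1.1 on mm10 and Seurat 3.1.1, although the kit 3 matrix headers name a later release and their gene tables are longer, so genes annotated differently can differ between kits. Genes were joined by identifier.

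The 8 members, the gene lists, the gates and the tests were chosen with earlier results of these data known. The named genes were the 8 members, the fixed lists of other defensin and Paneth genes (6 listed genes were not in all tables), and the 10 genes most correlated with the summed members. Other genes were not named. Adenoma cells had at least 2 of 6 adenoma genes at 3 or more UMIs per 10000 in sum, and under 200 of enterocyte genes. Goblet cells had 40 or more per 10000 of mucus genes, enterocytes 200 or more of absorptive genes, and crypt cells 5 or more of Olfm4. Because Olfm4 was hardly counted with kit 2, the genotype comparison in crypt cells used a gate without it, added after seeing the data, and the class comparisons used 14 sums.

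UMIs were summed per library and class, since cells are not replicates, and compared in edgeR 4.0.16 (quasi-likelihood fit, R 4.3.3, TMM scaling, minimum count 10, Benjamini-Hochberg at 0.05), with kit (genotype) or library (class) as a block. The labels tie the replicate number to the kit, and deviations of libraries of 1 kit correlated at r = 0.05 (adenoma), 0.38 (goblet), 0.63 (crypt) and 0.50 (enterocyte). On simulated data with 200 genes changed by a log2 of 2, edgeR recovered 193 with 8 false calls (adenoma genotype, 11870 genes), 181 with 1 (goblet genotype, 9664 genes) and 198 with 11 (adenoma against enterocyte, 11546 genes). The simulated counts had a fixed dispersion of 0.05 and no effect of kit or library beyond depth. They therefore check the code and do not measure the power of the real comparisons. Shares used cells thinned to 2000 UMIs, exact 95% binomial intervals and two-sided exact permutation tests over libraries, and the limit beside a count of 0 is 3 counts of the total. Alternatives were DESeq2 1.42.0, other scaling and filters, other cell limits, doubled gate minimums, Scrublet doublets (scanpy 1.11.5) removed at 0.8% per 1000 cells (276 cells), member-rich cells left out, thinned sums, and each library left out.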

Additional observations from a re-analysis of the deposited data

Results flagged for a closer look

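Shares of thinned adenoma-gated cells positive for a member went in opposite directions in the kit pairs for 3 genes. The VApcMinL minus ApcMin difference in percentage points was -5.08 with kit 2 and 10.5 with kit 3 for Lyz1, -29.2 and 1.51 for Defa24, and 9.30 and -5.32 for Itln1. Among goblet-gated cells it was -10.6 and 5.30 for Defa24, 33.6 and -17.0 for Ang4, and -13.5 and 17.1 for Mmp7. Each kit has 1 library per genotype, and the difference between the kit pairs was not tested.

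Cells that passed no gate are outside the comparisons between classes, and they held 85.6% of the member UMIs found in cells of ApcMin replicate 1, against 7.53% in VApcMinL replicate 1, 1.204% in ApcMin replicate 2 and 12.5% in VApcMinL replicate 2. In ApcMin replicate 1, 5 such cells held 81.2% of the library's member UMIs.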

How the results depend on the processing

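The number of members called changed mainly where crypt-gated or member-rich cells decide it. Without member-rich cells 5 of 8 were called between goblet- and enterocyte-gated cells (8 with all cells), 7 between adenoma- and enterocyte-gated cells (3) and 7 between adenoma- and crypt-gated cells (4). With gate minimums doubled 3 were called between goblet- and crypt-gated cells (8), 7 between adenoma- and crypt-gated cells, 8 between crypt- and enterocyte-gated cells (3) and 6 by genotype in crypt-gated cells (0). Without an expression filter the counts were 8 (adenoma against crypt), 8 (crypt against enterocyte), 5 (genotype, crypt) and 3 (genotype, enterocyte). Removing doublets gave 1 by genotype in crypt-gated cells. Between crypt- and enterocyte-gated cells, the gate without Olfm4 gave 0, a floor of 5000 UMIs 1, thinned cells 8, and fits without 1 library 1 (ApcMin replicate 2 left out) to 5 (VApcMinL replicate 2 left out). Over all genes, 3124 to 7899 were called between goblet- and enterocyte-gated cells and 5241 to 10627 between adenoma- and enterocyte-gated cells. Between crypt- and enterocyte-gated cells they ran from 2919 (thinned cells) to 8285 (gate without Olfm4). Without an expression filter, 59 genes (crypt) and 37 genes (enterocyte) were called by genotype. With the main settings, the shares of all genes called were 63.0% (goblet against enterocyte), 29.7% (goblet against crypt) and 78.1% (adenoma against enterocyte). They were 25.8% (adenoma against crypt), 60.7% (crypt against enterocyte), 0.0578% (genotype, crypt) and 0.00958% (genotype, enterocyte). For most other settings that share is not given here, and it was not tested against the member counts. No member count in this paragraph can thus be read as particular to the members. The cause of these shifts was not tested.

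The genotype differences of single members, none of them called, often changed sign. In adenoma-gated cells Defa24 was at -0.68 (gates doubled), -1.05 (no member-rich cells) and -0.23 (thinned), and Itln1 at 0.14 (mitochondrial limit 10%) and 0.25 (no member-rich cells). Over the fits without 1 library, Lyz1 ran from -0.22 to 1.68, Defa24 from -1.69 to 2.24, Defa30 from -3.07 to 0.64 and Itln1 from -0.72 to 0.75. In goblet-gated cells Defa30 was at 0.016 (doublets removed), Mmp7 at -0.029 (no member-rich cells) and Ang4 at -0.26 without the replicate block. Without 1 library, Lyz1 ran from -0.84 to 2.69, Defa24 from -1.73 to 0.65, Defa30 from -2.19 to 2.32, Gm14851 from -3.33 to 2.38, AY761184 from -3.91 to 1.23, Ang4 from -1.23 to 3.94, Mmp7 from -0.63 to 0.82 and Itln1 from -1.98 to 1.48. In crypt-gated cells Lyz1 was at -2.46 (gates doubled, called), and Ang4 at 0.18 (DESeq2), 0.0043 (without the replicate block), 0.29 (no member-rich cells) and -0.52 to 1.06 without 1 library. In enterocyte-gated cells Itln1 was at -0.052 (mitochondrial limit 10%), and without 1 library Defa24 ran from -2.25 to 0.10, Mmp7 from -0.29 to 1.61 and Itln1 from -0.10 to 0.46. Fits without the replicate block called 0 members by genotype in each class.

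Between classes, without member-rich cells Gm14851 was at -0.39 and AY761184 at -0.16 (goblet against enterocyte), Defa30 at -0.51, Gm14851 at -1.07 and AY761184 at -0.61 (goblet against crypt), Ang4 at -0.50 (adenoma against enterocyte) and Itln1 at -0.12 (crypt against enterocyte). For adenoma against crypt, Lyz1 was at -3.93 and Itln1 at -2.50 (gates doubled), at -0.74 and -0.056 (thinned), Defa24 at 0.22 and Ang4 at 0.83 (gate without Olfm4), Ang4 at 0.042 (floor of 5000 UMIs) and -3.39 to 0.67 without 1 library. For adenoma against enterocyte, Defa30 was at 0.066 (thinned), Gm14851 at 0.051 (mitochondrial limit 10%) and Ang4 at -0.37 (gates doubled), and without 1 library Defa24 ran from -1.09 to 0.42 and Ang4 from -0.40 to 1.72. For crypt against enterocyte, the gate without Olfm4 gave Lyz1 -0.45, Defa24 -0.26 and Itln1 -0.55, and fits without 1 library ran from -0.30 to 1.85, -0.081 to 2.64 and -0.27 to 1.43.

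The genotype difference in positive adenoma-gated cells ran, without 1 library, from -3.22 to 8.60 points for Lyz1, -0.809 to 0.263 for Ang4 and -2.23 to 6.20 for Itln1, which was at -1.94 without thinning. Over all genes, the calls between adenoma- and crypt-gated cells (3144) numbered 471 in thinned cells, 1064 without ApcMin replicate 2, 1863 without VApcMinL replicate 2 and 5770 with the gate without Olfm4. Those between goblet- and crypt-gated cells (3626) ran from 1044 without ApcMin replicate 2 to 4839 with the gate without Olfm4, and those by genotype from 0 to 3 (adenoma, 0 as reported), 0 to 48 (goblet, 7), 0 to 59 (crypt, 6) and 0 to 37 (enterocyte, 1). The gate without Olfm4, and fits without 1 library that also drop the kit term in the genotype comparisons, were chosen after seeing the data.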

Other observations

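Other alpha-defensins differed between libraries in their proportion to Defa24. Over all cells, Defa21 was at 7.07, 0.127, 4.64 and 20.1 UMIs and Defa22 at 8.64, 0.0338, 6.30 and 20.9 UMIs for each 100 of Defa24 (kit 2 ApcMin and VApcMinL, then kit 3 ApcMin and VApcMinL). In VApcMinL replicate 1 these are 30 UMIs of Defa21 and 8 of Defa22 beside 23692 of Defa24. Defa17 did not share this pattern, at 8.36, 9.37, 2.05 and 1.30 for each 100 of Defa24, higher with kit 2 than with kit 3. These are near-identical genes counted on gene tables that differ between the kits, and the part of the counting in these ratios was not tested. Few cells carried much of these counts. In ApcMin replicate 1, 4 cells held 72475 of the 113937 UMIs of Defa24. In VApcMinL replicate 1, 1 cell held 27 of the 30 UMIs of Defa21.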
